A study of Homo sapiens with 4 samples.

Results

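Mucins and luminal secretory genes were followed in MCF10A cells, an established human mammary epithelial line that is not tumorigenic. The group held 9 genes, of 25317 symbols in the deposited tables: the mucins MUC1, MUC4, MUC15, MUC16 and MUC20, the secretory pathway gene AGR2 and the transcription factors SPDEF, GATA3 and FOXA1. They were chosen by name with earlier results of these data known, and all 9 had a row in each table. The cells carried lentivirus with a green fluorescent marker that delivered Zeb1, Snail, Ovol2 or, as the control, an empty vector (EV). All cultures grew in serum-containing medium with epidermal growth factor, cholera toxin and insulin, and fluorescent cells were sorted after 6 days before total RNA was sequenced. With 1 library in each of the 4 groups, the differences below have no replicate check, and no p-value was computed between conditions.

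Mucins are large glycoproteins whose tandem repeats carry dense O-linked sugars. Some are secreted as gels, and others, including all 5 mucins followed here, span the membrane at the apical surface of epithelia. Secretory cells fold mucins in the endoplasmic reticulum, add the first sugar with GALNT enzymes in the Golgi and extend it with further transferases. In the mammary gland the luminal layer faces the duct and carries apical MUC1, and GATA3 and FOXA1 are transcription factors of that layer. MCF10A cells in culture have many basal features. Zeb1 and Snail drive the epithelial-to-mesenchymal transition, and Ovol2 drives the reverse one.

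Levels are FPKM, fragments scaled to transcript length and library size. From the step that 1 fragment makes among the lowest values, depth was estimated at about 34300000 fragments for Zeb1, 31600000 for Snail, 24100000 for Ovol2 and 29100000 for EV. Intervals below are 95% Poisson intervals on fragment numbers estimated from these depths, and they cover counting error only. ZEB1, SNAI1 and OVOL2 were each highest in the library that was to carry them. The basal markers KRT5, KRT14 and TP63 were expressed in all libraries, with TP63 at 4.06 FPKM with Zeb1, 15.7 with Snail, 8.23 with Ovol2 and 23.9 with EV. The RNase RNAs RMRP and RPPH1 took 22.1% of all FPKM with Zeb1, 18.7% with Snail, 40.6% with Ovol2 and 24.6% with EV.

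The Ovol2 library stood apart from the other 3 for most of these genes. MUC4 and MUC16 had a higher FPKM with Ovol2 than with EV but reached only 0.050 and 0.0631 FPKM there, and GATA3 had a lower one. AGR2, MUC15, FOXA1, SPDEF and MUC20 lay below 0.5 FPKM in the Zeb1, Snail and EV libraries and above 1 FPKM in the Ovol2 library. MUC1 went the other way, at 0.353 FPKM with Ovol2 against 4.95 with EV. In the Zeb1 and Snail libraries no member at 1 FPKM or more differed from EV by 2-fold.

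**Figure D1:**
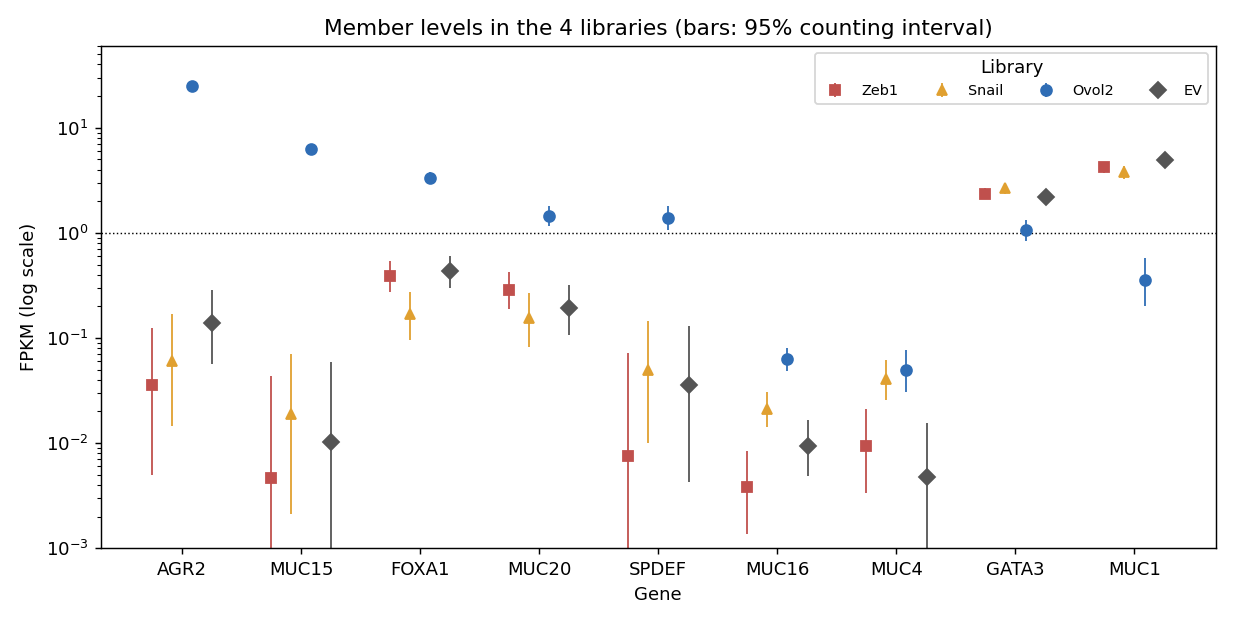
FPKM of the 9 genes (log axis) in the Zeb1, Snail, Ovol2 and EV libraries, 1 point per library, with 95% counting intervals that run off the axis where they reach below 0.001 and the dotted line at 1 FPKM. AGR2 reached 25.1 FPKM in the Ovol2 library and lay at 0.140 or lower in the other 3, while MUC1 was at 0.353 with Ovol2 and between 3.76 and 4.95 elsewhere.

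Promoters of 3 members are shown because AGR2 and FOXA1 had the higher and MUC1 the lower level with Ovol2, and because each holds a motif that was searched. They are the 250 bases before the RefSeq transcript start in build GRCh38.p14, which is not the hg19 build named in the submitters' processing notes. Of the 9 members, 7 matched a promoter entry. Capitals mark the E-box form CACCTG, which Zeb1 and Snail bind, on either strand, and a GATA form, AGATAA.
AGR2, chr7:16805000-16805249, minus strand: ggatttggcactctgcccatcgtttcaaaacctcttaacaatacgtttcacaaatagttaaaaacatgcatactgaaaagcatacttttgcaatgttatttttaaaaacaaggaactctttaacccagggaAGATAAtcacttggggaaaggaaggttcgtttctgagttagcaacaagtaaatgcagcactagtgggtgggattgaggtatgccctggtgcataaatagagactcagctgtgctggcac
FOXA1, chr14:37595250-37595499, minus strand: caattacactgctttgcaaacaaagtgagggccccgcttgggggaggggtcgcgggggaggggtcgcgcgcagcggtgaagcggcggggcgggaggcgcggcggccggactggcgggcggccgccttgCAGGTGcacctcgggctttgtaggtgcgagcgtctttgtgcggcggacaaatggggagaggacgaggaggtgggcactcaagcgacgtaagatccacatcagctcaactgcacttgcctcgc
MUC1, chr1:155192916-155193165, minus strand: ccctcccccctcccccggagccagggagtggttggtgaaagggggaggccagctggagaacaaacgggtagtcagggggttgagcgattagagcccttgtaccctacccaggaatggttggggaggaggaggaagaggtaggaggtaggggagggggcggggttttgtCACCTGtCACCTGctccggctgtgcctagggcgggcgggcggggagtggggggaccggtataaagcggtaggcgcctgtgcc
MUC1 held CACCTG at 82 to 77 and again at 75 to 70 bases before its start, and FOXA1 held this E-box on the opposite strand at 122 to 117. AGR2 held AGATAA at 119 to 114 bases before its start and no E-box of this form. Over all 35116 promoter windows of this length, searched on both strands, 17.5% held the E-box and 9.17% the GATA form. Of the 14 windows of members, 4 held the E-box, in MUC1, FOXA1 and MUC16, and 1 the GATA form. The MUC1 windows overlap and hold the same E-boxes, so these 4 are not separate matches. The MUC16 match lay on the opposite strand at 159 to 154 bases before one of its starts. A form bound by OVO proteins, CCGTTA, was in 2.45% of all windows. A forkhead form, TGTTTAC, was in 2.98%. Neither occurred in the windows of members. These motifs do not overlap in letters, and a match here describes sequence only.

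AGR2 encodes a protein of the disulfide isomerase family in the endoplasmic reticulum, which in mice is needed to fold the intestinal mucin Muc2. It was at 0.0357 FPKM in the Zeb1, 0.0610 in the Snail, 25.1 in the Ovol2 and 0.140 in the EV library, or about 2.2, 3.4, 1076 and 7.2 fragments. The Ovol2 interval ran from 23.6 to 26.6 FPKM and the EV interval from 0.0571 to 0.284, while the Zeb1, Snail and EV intervals overlapped one another. The Ovol2 level was 179.7 times that of EV (counting interval 87.9 to 440.4). Among listed genes AGR2 stood at percentile 93.7 of FPKM with Ovol2 and at percentile 42.0 with EV.

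All fold calls use the log2 ratio of FPKM + 1, and a gene was kept where it had 1 FPKM or more in either library of a comparison. The call of higher or lower was made at a log2 ratio of at least 1 in either direction, which is 2-fold on that scale and understates low genes. On it AGR2 had 4.52 with Ovol2, the rank 46 from the highest of 11812 kept genes.

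SPDEF is an ETS factor that drives goblet cell formation in mouse airway and gut. Its level was 0.00761 FPKM with Zeb1, 0.0496 with Snail, 1.40 with Ovol2 and 0.0359 with EV, or about 0.49, 3.0, 63.9 and 2.0 fragments. Only in the Ovol2 library did the interval, 1.08 to 1.78 FPKM, clear those of the other 3, which overlapped. The Ovol2 level was 38.9 times that of EV (counting interval 10.3 to 333.7, log2 ratio 1.21).

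FOXA1 is a forkhead factor that opens chromatin for hormone receptors in luminal cells. It was at 0.390 FPKM in the Zeb1, 0.168 in the Snail, 3.32 in the Ovol2 and 0.430 in the EV library. With Ovol2 this was 7.71 times the EV level (counting interval 5.41 to 11.3, log2 ratio 1.59). The Snail level was 0.391 times that of EV (0.200 to 0.731) at about 15.2 and 35.9 fragments, but both lay below 1 FPKM and outside the kept genes. The Zeb1 and EV levels differed by less than their counting error.

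GATA3, a zinc finger factor required for luminal fate in mice, did not follow FOXA1. It stood at 2.37 FPKM with Zeb1, 2.65 with Snail, 1.06 with Ovol2 and 2.17 with EV. The Ovol2 level was 0.486 times that of EV on the plain scale (counting interval 0.370 to 0.634). The log2 ratio of FPKM + 1 was -0.63, short of the 2-fold call, against a median of -0.51 over all genes kept with Ovol2. Centring within transcript length groups gave 0.05, so its direction was not stable. The ratios of Zeb1 (0.09) and Snail (0.20) to EV were small. The antisense gene GATA3-AS1 was at 0.0683 FPKM or lower in every library.

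Among the membrane mucins, MUC15 had the highest level in the Ovol2 library. It was at 0.00464 FPKM with Zeb1, 0.0190 with Snail, 6.27 with Ovol2 and 0.0103 with EV. Outside the Ovol2 library that came to about 1.9 fragments or fewer per library, against about 477 with Ovol2. The ratio of Ovol2 to EV was 607.9 with a counting interval of 104.6 to 28690, wide because the EV value rests on about 0.95 fragments, and the log2 ratio was 2.85. ANO3, which overlaps MUC15 in the RefSeq annotation, was at 0.00900 FPKM or lower in every library.

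MUC20, a small mucin that binds the receptor MET, was at 0.287 FPKM in the Zeb1, 0.155 in the Snail, 1.46 in the Ovol2 and 0.191 in the EV library. The Ovol2 level was 7.62 times that of EV (counting interval 4.35 to 14.3), and the log2 ratio of 1.05 lay just inside the 2-fold rule. It was 0.92, outside the rule, when totals were taken without RMRP and RPPH1. MUC20 lies in duplicated sequence on chromosome 3, and its level is uncertain because the assignment of shared reads is not stated.

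MUC4, a large mucin that binds ERBB2, and MUC16, which carries the CA125 antigen, stayed below 0.1 FPKM in every library. MUC4 was at 0.00949 FPKM with Zeb1, 0.0410 with Snail, 0.050 with Ovol2 and 0.00471 with EV, or about 5.6, 22.2, 20.7 and 2.3 fragments. The plain ratio of Ovol2 to EV was 10.6 (counting interval 2.81 to 74.5), and that of Snail to EV was 8.71 (2.33 to 60.8). MUC16 had 0.00385 FPKM with Zeb1, 0.0213 with Snail, 0.0631 with Ovol2 and 0.00939 with EV, or about 5.8, 29.5, 66.7 and 12.0 fragments. Its ratio was 6.72 for Ovol2 (3.60 to 13.7) and 2.27 for Snail (1.12 to 4.87). Neither gene passed the filter in any comparison, and no call was made for them. Other mucins below 1 FPKM in every library were near the floor, and no intervals were computed for them. MUC2, MUC3A, MUC5B, MUC7, MUC12, MUC13, MUC17, MUC22 and EMCN had a higher FPKM than EV with both Snail and Ovol2. MUC6 and MUC19 had a lower one with both. MUC12 rested on about 1.5 fragments with EV, and MUC6 on about 35.2 with EV and 21.3 with Ovol2. Whether these differences exceed counting error was not tested.

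MUC1, the mucin of the apical luminal surface, was the one member called lower. It was at 4.22 FPKM with Zeb1, 3.76 with Snail, 0.353 with Ovol2 and 4.95 with EV. The Ovol2 interval of 0.200 to 0.576 FPKM lay far below the EV interval of 4.37 to 5.58. With Ovol2 the level was 0.0713 times that of EV (counting interval 0.0399 to 0.119), a log2 ratio of -2.14 and the rank 264 from the lowest of the kept genes. The Zeb1 level was 0.853 times that of EV (0.716 to 1.01) and the Snail level 0.760 times (0.632 to 0.913). TRIM46, the nearest listed gene on one side, had a log2 ratio of -0.30 with Ovol2. Reads in the MUC1 repeats map to many places, and their handling is not stated.

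**Figure D2:**
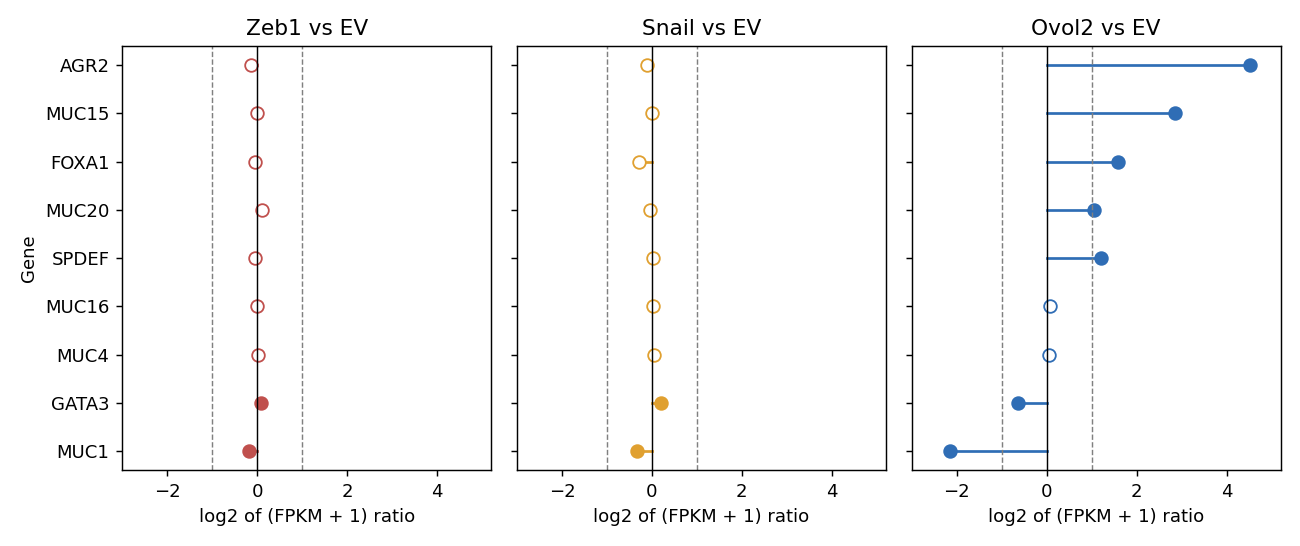
Log2 ratio of FPKM + 1 for each gene in the Zeb1, Snail and Ovol2 libraries against EV, with filled points for kept genes, open points for the others and dashed lines at 2-fold. With Ovol2, 5 genes lay beyond the upper line and MUC1 at -2.14 beyond the lower one. With Zeb1 and Snail, all points lay between the lines.

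In the Ovol2 comparison, 7 of 9 members were kept, 5 were higher, 1 was lower and GATA3 was neither. Of all 11812 kept genes, 31.9% were called, 6.82% higher and 25.1% lower. The median log2 ratio was 1.21 over the kept members and -0.51 over all kept genes. AGR2, MUC15, FOXA1, SPDEF and MUC20 passed the filter only through the Ovol2 library and so could not have been called lower. MUC1 passed it only through the EV library and could not have been called higher, and the counts and the median carry that choice. The members were also chosen with earlier results of these data known, so setting their counts beside the shares of all genes is no test. Centring on the median of genes at 5 FPKM or more gave 1582 genes higher and 1192 lower, against 806 and 2965 without it, and left the members at 5 higher and 1 lower. In bulk RNA, fewer cells that express a gene and less of its RNA per cell cannot be told apart.

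In the Zeb1 and Snail comparisons only MUC1 and GATA3 were kept, and neither was called in either. Of all kept genes, 13.0% were called with Zeb1 (4.52% higher and 8.49% lower) and 2.51% with Snail (1.0% higher and 1.5% lower). The members' median log2 ratios were -0.05 with Zeb1 and -0.06 with Snail, and over all kept genes they were -0.09 and 0.12. The 7 other members were below 1 FPKM in both libraries and in EV, and AGR2, SPDEF, MUC15 and MUC4 had about 7.2 fragments or fewer in EV, too few to resolve a lower level well at this depth. All 3 comparisons share the EV library.

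Lists of related genes were counted by the same rule, and their counts stand beside the shares of all kept genes given above. Like the members, they were chosen with earlier results of these data known. Of 16 other mucins, 15 matched a row and 4 were kept with Ovol2, of which 2 were higher and 0 lower. Of those kept, MUCL1, MUC21 and OVGP1 passed the filter only through the Ovol2 library and so could not have been called lower. MUCL1, a small secreted mucin of the breast, was listed at 0 with Zeb1 and was at 0.0129 FPKM with Snail, 49.7 with Ovol2 and 0.0351 with EV (log2 ratio 5.61 for Ovol2). MUC21 was at 0.00797, 0.0264 and 1.09 FPKM with Zeb1, Snail and Ovol2 and was listed at 0 with EV (1.06 for Ovol2). The gel-forming mucins MUC2 and MUC5B were at 0.0522 FPKM or lower in every library. CD164, a widely expressed sialomucin, was at 33.4 FPKM with Ovol2 against 40.2 with EV (-0.26).

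Of 25 enzymes of mucin-type O-glycosylation, 24 matched, and 19 were kept with Ovol2, 3 of them higher and 8 lower (median log2 ratio -0.91). Among the higher ones, GCNT3, which makes core 2 and core 4 branches, was at 0.236 FPKM with Zeb1, 0.278 with Snail, 18.3 with Ovol2 and 0.410 with EV (log2 ratio 3.77 for Ovol2). ST6GALNAC1, which makes the sialyl-Tn antigen, had 0.0400 FPKM with Zeb1, 0.0261 with Snail, 4.93 with Ovol2 and 0.112 with EV (2.42). B3GNT3, which extends core 1, had 0.0964 FPKM with Zeb1, 0.262 with Snail, 6.46 with Ovol2 and 0.791 with EV (2.06). These 3 passed the filter only through the Ovol2 library.

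The lower ones with Ovol2 included GALNT7, one of the enzymes that act early in the chain, at 1.74 FPKM against 10.3 with EV (-2.05). Also lower were GALNT10 (-1.98), GALNT2 (-1.86), GALNT1 (-1.25) and GALNT11 (-1.07). GCNT1, another core 2 enzyme, was at 0.537 FPKM with Ovol2 against 5.13 with EV, and the sialic acid capping enzymes ST3GAL1 (-1.57) and ST3GAL2 (-1.17) were lower too. All of these lower enzymes except GALNT7 were named after their values were seen. With Zeb1, 16 enzymes were kept, 1 was higher and 4 were lower (median -0.12). The lower ones were GALNT3 (-1.91), GALNT18 (-1.81), GALNT6 (-1.25) and ST6GALNAC2, at 4.12 FPKM with Zeb1 against 13.5 with EV. The higher one, C1GALT1C1, the chaperone of the core 1 enzyme, was at 19.5 FPKM with Zeb1 against 8.43 with EV (1.12) and was named after its value was seen. With Snail, 1 of 17 was lower, ST6GALNAC2 (-1.27), and 0 were higher.

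The disulfide isomerase relatives of AGR2 did not share its level. AGR3, its nearest relative and neighbour on chromosome 7, was at 0.0144 FPKM with Zeb1, 0.0131 with Snail and 0.0177 with Ovol2 and was listed at 0 with EV. P4HB, the main disulfide isomerase, was at 161.9 FPKM with Ovol2 against 149.8 with EV (log2 ratio 0.11). Of 17 genes in this list, 15 were kept in every comparison, and 0 were called with Zeb1 or Snail. With Ovol2, 4 were lower and 0 higher (median -0.57), led by DNAJC10 (-1.53), TMX3 (-1.25) and PDIA5 (-1.09). Over all kept genes 25.1% were lower and the median was -0.51, so the isomerase list lay near the background.

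Luminal and hormone receptor genes were mixed. With Ovol2, 3 of 17 kept genes were higher and 2 lower (median -0.30), out of 39 on the list. SLPI, a secreted protease inhibitor, was at 42.7 FPKM with Zeb1, 137.2 with Snail, 1215 with Ovol2 and 161.8 with EV (log2 ratio 2.90 for Ovol2). ELF3, an epithelial ETS factor, had 1.66 FPKM with Zeb1, 2.61 with Snail, 63.8 with Ovol2 and 11.4 with EV (2.39). XBP1, a factor of the secretory pathway, was at 45.9 FPKM with Ovol2 against 21.9 with EV (1.03). The lower genes were FOXM1 (-1.84), a cell cycle factor, and the secreted WFDC2 (-1.04).

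Luminal keratins and hormone receptors were not called with Ovol2. KRT8 had a log2 ratio of -0.30 and KRT18 one of -0.13 with Ovol2, and the oestrogen receptor ESR1 was at 0.875 FPKM with Ovol2 against 1.65 with EV. KRT19, another luminal keratin, was at 0.909 FPKM with Ovol2 against 0.138 with EV, and ELF5, an ETS factor of luminal progenitors, was at 0.570 FPKM with Ovol2 and listed at 0 with EV, so both stayed below the filter. The progesterone receptor PGR was at 0.00515 FPKM or lower in all 4 libraries. With Zeb1, 1 of 17 kept genes was higher, TBX3 (1.49), and 6 were lower, led by ELF3 (-2.22), SLPI (-1.90), WFDC2 (-1.86) and KRT18 (-1.25). With Snail, ELF3 (-1.78) was the 1 lower gene of 17, and 0 were higher.

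Of 8 sheddases and binding partners of membrane mucins, 5 were lower and 1 higher with Ovol2 (median -1.63). EGFR, which binds MUC1, was at 6.16 FPKM with Ovol2 against 55.6 with EV (log2 ratio -2.98), and the proteases ADAM9 (-2.17), MMP14 (-1.83) and ADAM10 (-1.67) followed. ADAM17, which cleaves MUC1, was at 5.93 FPKM with Ovol2 against 20.1 with EV (-1.60) and was named after its value was seen. LGALS3, a galectin that binds MUC1, was higher with Ovol2 (1.11), and ERBB2, the partner of MUC4, had a log2 ratio of 0.28. EGFR (-1.27) was the 1 lower gene with Zeb1, and 0 of 8 were called with Snail.

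**Figure D3:**
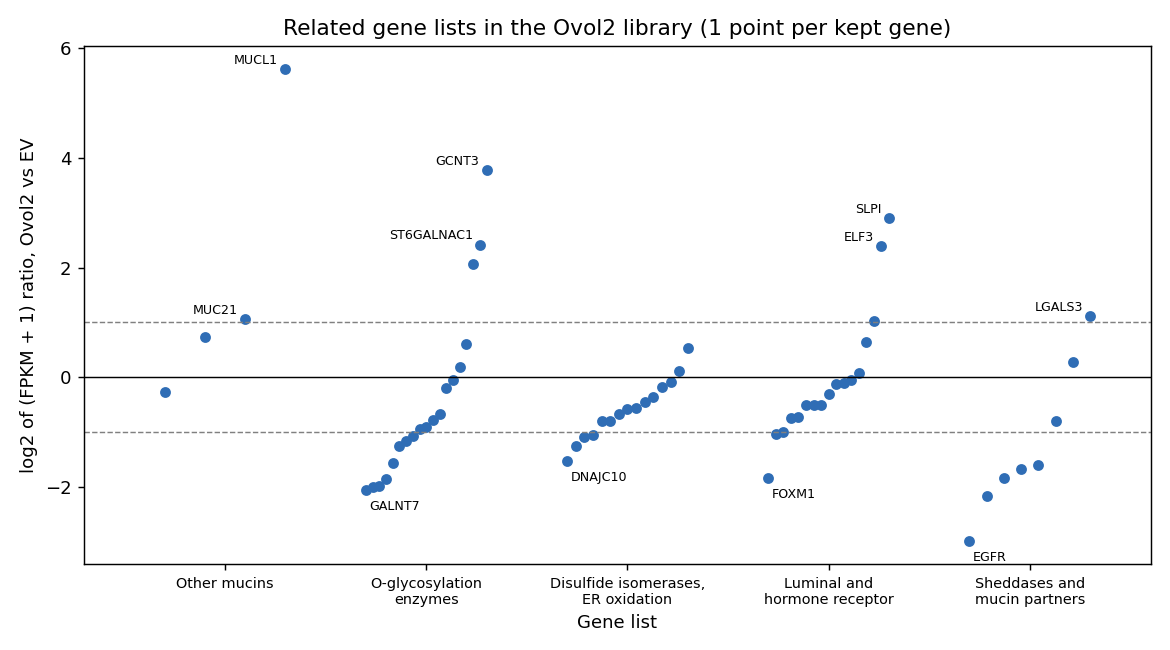
Log2 ratio of FPKM + 1 in the Ovol2 library against EV for the kept genes of 5 lists, 1 point per gene in rising order, with dashed lines at 2-fold and the outermost called genes named. MUCL1 (5.61) and GCNT3 (3.77) lay highest, and EGFR (-2.98) lay lowest.

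Markers of other cell types were set beside these values. The 5 matched markers of goblet-like secretory cells summed to 0.0238 FPKM with Zeb1, 0.142 with Snail, 0.767 with Ovol2 and 0.197 with EV, all 5 were below 1 FPKM in each library, and TFF3 was listed at 0 in all 4. The 6 squamous keratinocyte markers summed to 16.3 FPKM with Zeb1, 21.2 with Snail, 3112 with Ovol2 and 15.6 with EV, and all 6 were higher by 2-fold or more with Ovol2. Of all kept genes, 6.82% were higher with Ovol2. KRT1, SPRR1A, SPRR3 and KRTDAP passed the filter only through the Ovol2 library and so could not have been called lower. The part of the squamous markers in the members' levels was not tested. Of the 8 basal markers, 7 were lower with Ovol2 and 8 with Zeb1, where 25.1% and 8.49% of all kept genes were lower.

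AGR2 and MUC15 had the largest summed size of log2 ratios over the 3 comparisons (4.76 and 2.87). The genes nearest to AGR2 in these ratios, among 8277 genes at 5 FPKM or more in any library, were the protease inhibitor SERPINB4, the carboxylesterase CES1 and CARD18, at Euclidean distances of 0.146, 0.178 and 0.221. Their levels with Ovol2 were 27.4, 25.1 and 26.8 FPKM. The nearest to MUC15 were GAST, SDR9C7 and PLA2G4F, at distances of 0.124, 0.134 and 0.157. These distances rest on 4 libraries and say only that these genes were near absent elsewhere and reached a like level with Ovol2.

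**Figure D4:**
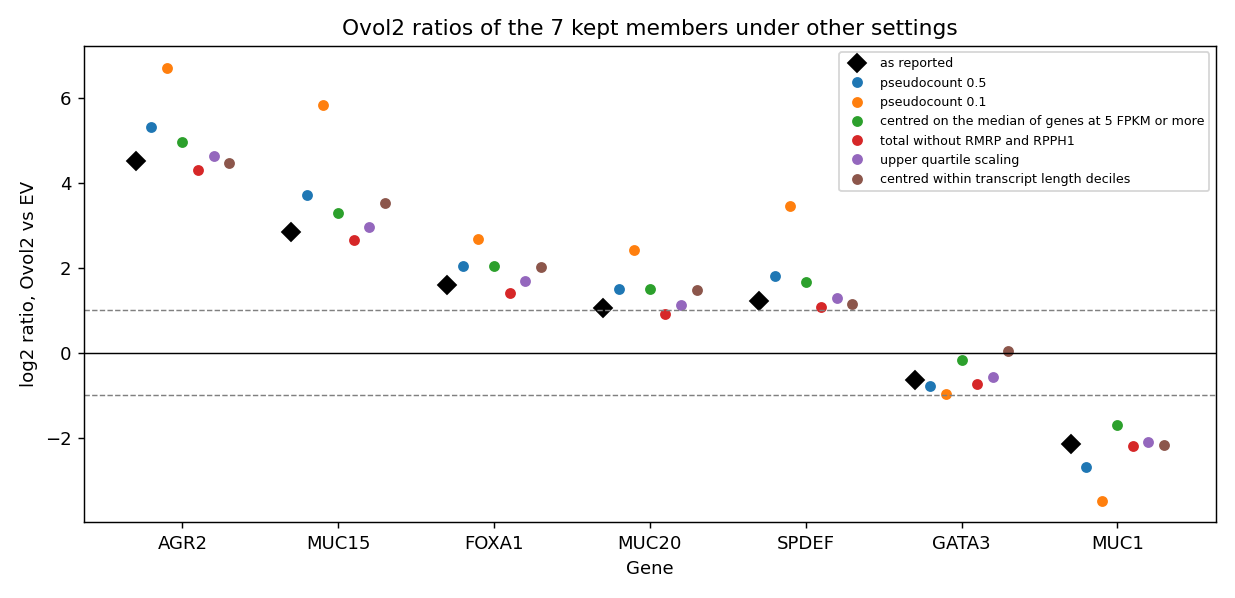
Log2 ratio of the 7 kept members in the Ovol2 library against EV as reported (black diamonds) and with other pseudocounts, scalings or centring (coloured points), with dashed lines at 2-fold. AGR2, MUC15, FOXA1 and SPDEF stayed above the upper line and MUC1 below the lower one in each setting drawn, MUC20 reached 0.92, and GATA3 ran from -0.98 to 0.05.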

How the data were processed

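RNA sequencing of 4 MCF10A libraries, 1 per group, was analysed from 3 deposited tables of 25360 rows that each set EV beside 1 factor library. TopHat, Cufflinks and Cuffdiff appear with hg19 in the submitters' processing notes. Tool versions, gene annotation, strand and read assignment, and scaling between libraries are not given in the sources used here. Expression values deposited by the authors were taken as FPKM because those notes name Cufflinks and because the values behave so; no header names the unit. Per the file headers, the authors also deposited a signed fold (a score here) and an adjusted p-value from a model of 1 library against 1 with 8 degrees of freedom, used as an alternative only. EV values were the same in all tables.

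Values of symbols that occur more than once (43 extra rows) were added up. Log2 ratios used a pseudocount of 1 FPKM, a filter of 1 FPKM in either library and a call at 2-fold, with no test. Fragment numbers came from FPKM, the depth estimate and the longest RefSeq-matched GENCODE transcript (no effective length correction), so they are approximate and need not be whole; they are least sure for MUC1, MUC4 and MUC15, which have several transcripts. Ratio intervals are binomial on these numbers. The filter and call were run on simulated data in which only genes at 5 FPKM or more in EV were changed. No member reached that level in EV, so the simulation cannot speak for calls at the members' levels. It did not cover the depth estimate or the intervals.

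Members and lists were chosen with earlier results of these data known. All 9 members were named, with up to 4 genes of largest log2 ratio per list and comparison. Further genes of the lists, among them XBP1, LGALS3, ERBB2, P4HB and AGR3, were named outside that rule. No column was left unmapped. The value of 1 listed gene is not reported here. Python 3.11.15, pandas 2.3.3, NumPy 2.4.6 and SciPy 1.17.1 were used.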

Additional observations from a re-analysis of the deposited data

How the results depend on the processing

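With Ovol2, members called were 6 of 9 under both other pseudocounts, no filter, centring, upper quartile scaling and length centring, and 5 under totals without RMRP and RPPH1, where MUC20 was lost. The counts over all kept genes moved more. They were 1008 higher and 4305 lower with a pseudocount of 0.1, and 919 and 3723 with 0.5. Upper quartile scaling gave 972 and 2551, length centring 1092 and 897, and totals without RMRP and RPPH1 569 and 3790. At a filter of 5 FPKM, 609 of 7445 genes were higher and 2039 lower. Of the members, that filter kept AGR2 and MUC15 only and left 2 called, with a median log2 ratio of 3.68. The median was 2.69 with a pseudocount of 0.1 and 1.82 with 0.5, since a smaller pseudocount enlarges ratios of low genes, and between 1.05 and 1.66 under the other alternatives. No called ratio changed sign. The ratio of GATA3 ran from -0.98 to 0.05 over these settings.

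The fold deposited by the authors was 2 or more in size for 9 members with Ovol2 (7 higher, 2 lower). It was so for 5 with Zeb1 (1 higher, 4 lower) and 4 with Snail (2 higher, 2 lower). Under the other settings 0 were called with Zeb1 and Snail here. Those 5 and 4 were all members below 1 FPKM. This alternative also asked for an adjusted p-value below 0.05, but that removed no member, so the plain fold alone decided. The share of all genes at that fold was not counted, so these counts have no background beside them. A filter of 5 FPKM kept no member with Zeb1 or Snail and gave no median there.

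Length centring was chosen after the data were seen. It moved MUC16 to 1.34 and MUC4 to 1.33 with Ovol2, as their transcripts are in the longest group, but both stayed below the filter. Upper quartile scaling and centring moved the median of all kept genes with Ovol2 to -0.41 and -0.06, and totals without RMRP and RPPH1 to -0.67. No paired analysis was possible because each group held 1 library.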

Other observations

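Genes beside the members on the chromosome, by RefSeq gene order, include TSPAN13 and TNK2. TSPAN13, a tetraspanin beside AGR2 on chromosome 7, was at 2.89 FPKM with Zeb1, 3.19 with Snail, 14.99 with Ovol2 and 8.02 with EV, with log2 ratios of -1.21, -1.11 and 0.83. TNK2, a kinase gene beside MUC4 on chromosome 3, was at 5.23 FPKM with Zeb1, 13.2 with Snail, 3.65 with Ovol2 and 17.4 with EV, and had log2 ratios of -1.56, -0.37 and -1.98. MIPOL1, beside FOXA1, had a log2 ratio of -0.45 with Ovol2, and SNRPC, beside SPDEF, one of 0.44. MUC4 and MUC20, both followed here, lie beside each other on chromosome 3, with log2 ratios of 0.06 and 1.05 with Ovol2.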
